A study of Cricetulus griseus with 24 samples.

Results

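The comparison described here set stationary-phase cultures of A0 against stationary-phase cultures of CHO-S, by RNA-seq of Chinese hamster ovary (CHO) cells. The libraries were chosen by their labels alone and make up 7 of the 24 libraries of the series, 4 of A0 and 3 of CHO-S. A0 is an antibody-producing CHO line that had received a plasmid with an IgG heavy chain and a selection marker and a second plasmid with the light chain and a neomycin resistance gene. It had been selected with G418, was not put through gene amplification, and served in the study as the low-producing parent of a high-producing line. CHO-S is another CHO line, in common use as a host, and is described here only by its name and phase. The titles of its libraries also carry the label NDST, which the sources used here do not explain. A0 was grown in serum-free suspension batch culture with hydrolysate and insulin, in a medium without selection drug. The host from which A0 was made and the medium of CHO-S are not given in the sources used here. A0 is 1 selected line, so line, host, transfection, selection and any difference in medium cannot be told apart in this comparison. No genotype other than the plasmids is stated for either line, and whether NDST names one is not known.

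CHO cells serve as the main mammalian host for therapeutic antibodies. Folate enzymes handle the one-carbon units that cells need for thymidylate and purine synthesis. In the stationary phase of a batch culture nutrients run down and growth stops, and amino acid shortage and a load of unfolded protein in the endoplasmic reticulum are sensed through the integrated stress response and the unfolded protein response. Both meet in the transcription factor ATF4, which raises amino acid transporters and biosynthetic enzymes.

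Counts on genes ranged from 10727892 to 12913264 in the A0 libraries and were 1038026, 14290792 and 7516854 in CHO-S libraries 1 to 3. CHO-S library 1, called the shallow library below, also stood apart in its values. It had 32.8% of its reads outside annotated genes, against 18.2% and 18.1% in CHO-S 2 and 3. Among 4761 genes with a mean of at least 50 CPM (counts scaled to a common library total) in CHO-S, 1136 (23.9%) differed at least 2-fold between the shallow library and the mean of the other two, 518 upwards and 618 downwards. Between CHO-S 2 and 3 no gene did. Across those genes the correlation of log2 values was 0.734 and 0.743 between the shallow library and CHO-S 2 and 3, and 0.996 between these 2. The A0 libraries fell into pairs, since counts of A0 1 and 2, and of A0 3 and 4, differed less from each other (chi-square per degree of freedom 3.96 and 2.90) than across the pairs (16.96 to 20.7). Reads not aligned made up 6.43% to 9.41% in A0 and 2.35% to 3.06% in CHO-S. The part of depth, reads outside genes and unaligned reads in the results was not tested.

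**Figure D1:**
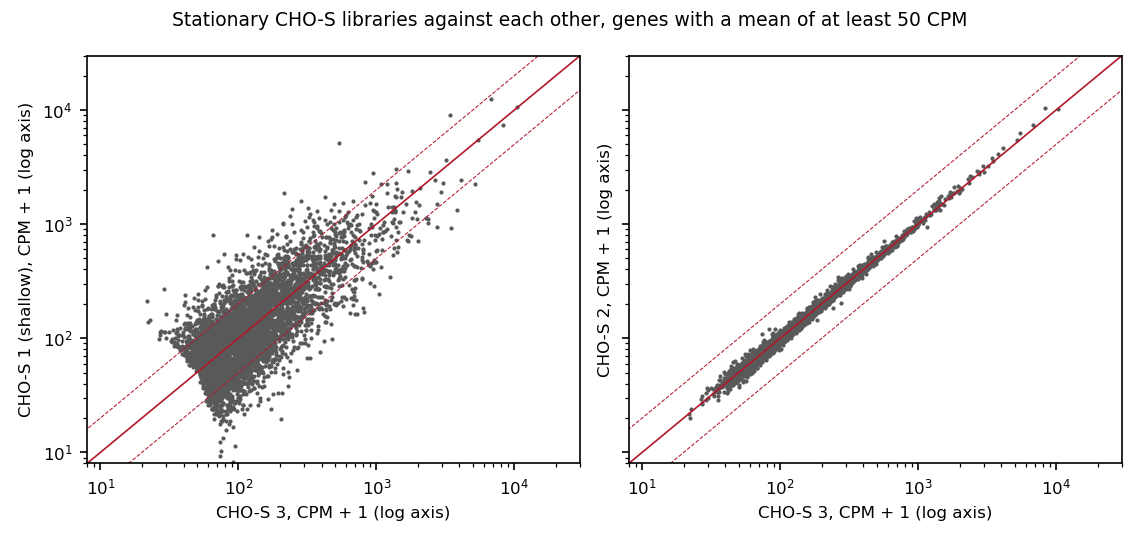
Each point is 1 gene with a mean of at least 50 CPM in the stationary CHO-S libraries (4761 genes), with CHO-S 3 on the horizontal log axis and CHO-S 1 (left) or CHO-S 2 (right) on the vertical log axis, both in CPM + 1. The solid line marks equal values and the dashed lines a 2-fold difference between the libraries drawn. Between CHO-S 2 and CHO-S 3, 0 genes passed it. The count of 1136 genes in the text sets the shallow library against the mean of the other 2, not against CHO-S 3 alone as drawn.

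Values by library are given below in the order A0 1 to 4 and CHO-S 1 to 3, so that the first CHO-S value is the shallow library. They are CPM after TMM normalisation, which scales library totals so that most genes match. CPM are not divided by gene length and are compared only within a gene. A log2 fold change is A0 relative to CHO-S with its standard error, n is 4 against 3, and a gene was called at an adjusted p under 0.05 in edgeR's quasi-likelihood test over 19007 genes. The labels number the libraries of a line but do not say which came from separate cultures, so p-values measure the spread between these libraries. In bulk RNA, fewer cells that express a gene and less RNA per cell cannot be told apart.

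Of the 19007 genes tested, 7606 (40%) were called, 3938 (20.7%) higher and 3668 (19.3%) lower in A0. At least 2-fold differences were called for 4906 genes (25.8%). Without the shallow library 9831 of 18990 genes (51.8%) were called, 5309 (28%) higher and 4522 (23.8%) lower. Of the 7606 genes, 52 were no longer called without it, 2277 others were called, and 0 of those called in both changed sign. The groups did not overlap for 8578 genes (45.1%). The median log2 fold change over all genes was 0.08 with and 0.13 without the shallow library. Each gene named with a called difference kept its call and direction without the shallow library. Cell identity was checked against marker lists. Of 10 blood cell markers listed, Ptprc, Cd79a and Hbb had 0 counts in all 7 libraries and no tested marker was called, at summed levels of 16.6 to 65.9 CPM in A0 and 28.9 to 39.5 CPM in CHO-S, nearly all of it Cd68. The keratins Krt14 and Krt18 also had 0 counts in these libraries, and the summed epithelial markers reached 3.88 CPM at most. This sum covers 9 of 14 markers listed, since Krt5, Krt7, Krt19, Cldn3 and Cldn4 were not found by name. Of 5 epithelial markers tested, 2 were called (40%, as over all genes), each higher in A0. Their median log2 fold change was 2.11, and 2.27 without the shallow library. Fshr and Lhcgr, the gonadotrophin receptors of ovarian cells, had 0 counts.

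Of 21 folate and thymidylate enzymes tested, 13 were called (61.9%, against 40% of all genes), 10 higher and 3 lower in A0. The median log2 fold change was 0.55, against 0.08 over all genes. Without the shallow library 16 were called and the median was 0.43. Mthfd2, the mitochondrial enzyme that oxidises methylene-tetrahydrofolate, had 656, 572, 625 and 664 CPM in A0 and 78.0, 117 and 127 CPM in CHO-S (log2 fold change 2.53 ± 0.19, adjusted p = 4.62e-06, 2.40 without the shallow library). Every A0 library was above every CHO-S library. Fewer enzymes went the other way. Ggh, gamma-glutamyl hydrolase, which removes the polyglutamate tail of folates, had 7.33, 6.5, 12.2 and 11.3 CPM in A0 and 38.5, 31.3 and 28.1 CPM in CHO-S (log2 fold change -1.75 ± 0.24, adjusted p = 2.29e-04, -1.63 without the shallow library). Tyms, thymidylate synthase, was not called.

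Amino acid response genes were mostly higher in A0. Of 23 ATF4 targets and amino acid supply genes tested, 78.3% were called, against 40% of all genes, 17 higher and 1 lower in A0. The median log2 fold change was 1.66 (1.64 without the shallow library, when 18 were higher and 2 lower). Genes named by their place in a list follow a fixed rule, except Atf4, Ldha, Vegfa, Col6a1, Timp1, Spp1, Irf7 and Usp18, which were chosen after their values were seen. Atf4 itself had 804, 781, 688 and 727 CPM in A0 and 252, 209 and 233 CPM in CHO-S (log2 fold change 1.70 ± 0.14, adjusted p = 9.52e-06, 1.79 without the shallow library). Slc1a5, which encodes a glutamine transporter, had 189.8, 193, 176 and 174 CPM in A0 and 7.28, 28.9 and 27.5 CPM in CHO-S (log2 fold change 2.94 ± 0.30, adjusted p = 3.74e-05, 2.72 without the shallow library). Sesn2, sestrin 2, an inhibitor of mTORC1 that binds leucine, had 78.9, 92.6, 70.7 and 70.0 CPM in A0 and 5.2, 14.2 and 12.7 CPM in CHO-S (log2 fold change 2.67 ± 0.24, adjusted p = 1.39e-05, 2.55 without the shallow library). In these 3 genes the lowest A0 value was above the highest CHO-S value. Trib3, a pseudokinase induced by ATF4 and CHOP, had 226, 216, 162 and 157 CPM in A0 and 15.6, 44.4 and 43.8 CPM in CHO-S (log2 fold change 2.35 ± 0.30, adjusted p = 1.51e-04, 2.13 without the shallow library). Slc7a11, the cystine transporter subunit, had 99.6, 117, 194 and 207 CPM in A0 and 78.0, 37.6 and 37.2 CPM in CHO-S (log2 fold change 1.69 ± 0.34, adjusted p = 0.00295, 2.08 without the shallow library), and its A0 pairs differed, libraries 3 and 4 being higher than 1 and 2. The exception was Stc2, a secreted glycoprotein, which had 0.0928, 0, 0 and 0 CPM in A0 and 15.6, 15.3 and 11.9 CPM in CHO-S (adjusted p = 4.51e-07). At exponential phase the median of the list was 0.34, 8 genes were higher and 5 lower. The difference between lines changed with phase for 17 of the 23 genes, always towards A0 at stationary phase, against 10.3% of all 20871 genes tested for this interaction.

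**Figure D2:**
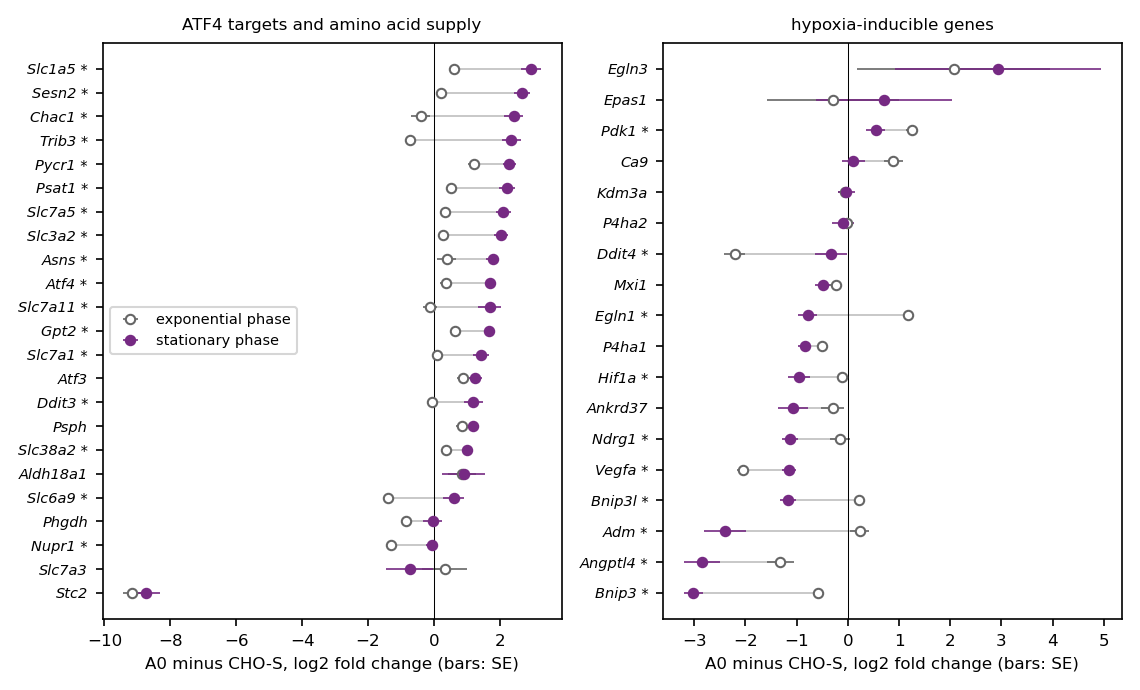
Log2 fold change of A0 over CHO-S with its standard error for each tested gene of 2 lists, at exponential phase (open circles, 8 A0 libraries summed to 4 by their number and 3 CHO-S libraries) and stationary phase (filled circles, 4 A0 and 3 CHO-S libraries). An asterisk marks genes whose difference changed with phase at an adjusted p under 0.05, which holds for 17 of 23 ATF4 targets, all moved to the right, and 10 of 18 hypoxia-inducible genes. Over all genes tested for this interaction the share was 10.3%.

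Of 34 secretory machinery and unfolded protein response genes, 58.8% were called, against 40% of all genes, 15 higher and 5 lower. The list had a median of 0.37 (0.50 without the shallow library, when 21 were higher and 7 lower). Hspa5, which encodes BiP, the main chaperone of the endoplasmic reticulum, had 19549, 19830.2, 12818 and 11159 CPM in A0 and 5467, 6272 and 5435 CPM in CHO-S (log2 fold change 1.47 ± 0.21, adjusted p = 3.56e-04, 1.46 without the shallow library). Hyou1, a chaperone that works with BiP, had 4701, 4703, 3064 and 2952 CPM in A0 and 1566, 2173 and 1942 CPM in CHO-S (log2 fold change 1.02 ± 0.21, adjusted p = 0.003, 0.93 without the shallow library). For both, A0 1 and 2 were above A0 3 and 4, and all 4 were above CHO-S. With A0 3 and 4 alone Hyou1 missed the threshold (adjusted p = 0.0516). Sel1l, an adaptor of the ubiquitin ligase that clears misfolded proteins, had 434, 473, 454 and 420.4 CPM in A0 and 125, 147 and 143 CPM in CHO-S (log2 fold change 1.68 ± 0.14, adjusted p = 9.58e-06, 1.64 without the shallow library). Ssr4, a subunit of the translocon-associated complex, had 247, 212, 194 and 193 CPM in A0 and 46.8, 68.3 and 62.4 CPM in CHO-S (log2 fold change 1.81 ± 0.18, adjusted p = 2.98e-05, 1.72 without the shallow library). Calr and Pdia3 went the other way. Calr, calreticulin, had 2935, 2865, 2229 and 2155 CPM in A0 and 9018, 3761 and 3437 CPM in CHO-S (log2 fold change -1.08 ± 0.30, adjusted p = 0.0157, -0.47 without the shallow library), with its highest value in the shallow library. The A0 libraries were all below the CHO-S libraries. Pdia3, the oxidoreductase that acts with calreticulin, had 1038, 1033, 940.1 and 954 CPM in A0 and 2935, 1839 and 1698 CPM in CHO-S (log2 fold change -1.12 ± 0.19, adjusted p = 8.84e-04, -0.81 without the shallow library). In 8 of the 34 genes the difference changed with phase, in 6 of them upwards, against 10.3% of all genes tested for this interaction. Hspa5, at 0.11 in exponential phase, changed by 1.36 ± 0.22, adjusted p = 5.00e-04, 1.38 without the shallow library.

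Glycolytic genes were more often lower than higher in A0. Of 22 tested, 59.1% were called, against 40% of all genes, 11 lower and 2 higher. The median was -0.58 (-0.67 without the shallow library, 12 lower and 2 higher). Gapdh had 2241, 2212, 1972 and 1969.6 CPM in A0 and 7379, 10365 and 8291 CPM in CHO-S (log2 fold change -2.05 ± 0.14, adjusted p = 2.78e-06, -2.13 without the shallow library). Pgam1, phosphoglycerate mutase, had 289.6, 268, 247 and 266 CPM in A0 and 567, 1582 and 1403 CPM in CHO-S (log2 fold change -2.15 ± 0.29, adjusted p = 2.09e-04, -2.45 without the shallow library). Both were below every CHO-S library in all A0 libraries. Ldha, lactate dehydrogenase A, had 839.9, 754, 695 and 726 CPM in A0 and 2432, 2901 and 2671 CPM in CHO-S (log2 fold change -1.82 ± 0.13, adjusted p = 3.35e-06, -1.86 without the shallow library). The 2 genes higher in A0 were Pfkp, the platelet-type phosphofructokinase, which had 185, 194, 159 and 149 CPM in A0 and 76.9, 102 and 87.8 CPM in CHO-S (log2 fold change 0.94 ± 0.16, adjusted p = 0.00124, 0.88 without the shallow library), and Pdk1. Pdk1, the kinase that holds back pyruvate dehydrogenase, had 43.5, 48.4, 50.9 and 59.4 CPM in A0 and 25.0, 40.4 and 34.2 CPM in CHO-S (log2 fold change 0.55 ± 0.18, adjusted p = 0.0366, 0.46 without the shallow library), and lost its call without A0 2, 3 or 4 or CHO-S 3 (adjusted p from 0.0659 to 0.109). At exponential phase the median was -0.08 and 7 genes were lower and 5 higher. Of 9 genes whose difference changed with phase, 0 moved towards A0. Over all genes 10.3% changed with phase, 3.78% upwards and 6.57% downwards.

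Hypoxia-inducible genes went the same way. Of 18 tested, 66.7% were called, against 40% of all genes, 11 lower and 1, Pdk1, higher. The median was -0.81 (-0.70 without the shallow library), against -0.14 at exponential phase. Bnip3, a mitophagy receptor induced by HIF-1, had 46.8, 43.0, 38.9 and 31.0 CPM in A0 and 369, 329 and 274 CPM in CHO-S (log2 fold change -3.02 ± 0.18, adjusted p = 1.25e-06, -2.90 without the shallow library). Its relative Bnip3l had 121, 117, 103 and 91.4 CPM in A0 and 265, 249.8 and 216 CPM in CHO-S (log2 fold change -1.17 ± 0.16, adjusted p = 2.10e-04, -1.08 without the shallow library). The groups were apart for both. Bnip3 was at -0.57 in exponential phase, and its difference changed by -2.44 ± 0.21, adjusted p = 6.80e-07, -2.29 without the shallow library. Vegfa, a HIF-1 target that encodes an angiogenic growth factor, was lower at both phases (-1.15 at stationary and -2.04 at exponential phase).

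Of 25 sterol synthesis and uptake genes, 60% were called, against 40% of all genes, 12 lower and 3 higher in A0. Their median was -0.45 (-0.61 without the shallow library, 17 lower and 4 higher). Insig1, which holds SREBP processing back and is itself a SREBP target, had 107, 88.1, 145 and 128 CPM in A0 and 642, 386 and 365 CPM in CHO-S (log2 fold change -1.98 ± 0.24, adjusted p = 1.07e-04, -1.65 without the shallow library). Stard4, a cytosolic sterol carrier, had 0 CPM in all 4 A0 libraries and 45.7, 31.3 and 34.4 CPM in CHO-S, at least 611-fold lower against a floor of 3 counts over the 4 A0 libraries (adjusted p = 1.63e-06). This and later bounds for genes at 0 in A0 set the mean of all 3 CHO-S libraries against that floor. For Stard4 this mean was 37.1 CPM, and 32.8 CPM without the shallow library, which gives a smaller bound. The SREBP genes went the other way. Srebf1 had 10.5, 10.9, 11.9 and 11.6 CPM in A0 and 4.16, 6.54 and 7.36 CPM in CHO-S (log2 fold change 0.76 ± 0.19, adjusted p = 0.00803, 0.73 without the shallow library), and its call was lost with A0 1 and 2 alone (adjusted p = 0.0558). Srebf2 had 562, 539.8, 519 and 496 CPM in A0 and 184, 384 and 397 CPM in CHO-S (log2 fold change 0.70 ± 0.24, adjusted p = 0.0364, 0.47 without the shallow library), but its call was lost when any 1 of the 4 A0 libraries was left out (adjusted p from 0.063 to 0.086).

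Matrix genes were mostly lower in A0. Of 41 collagens, matrix genes and proteases tested, 75.6% were called, against 40% of all genes, 23 lower and 8 higher in A0. Their median was -1.17 (-1.39 without the shallow library, 24 lower and 8 higher). Col4a1, an alpha chain of basement membrane collagen IV, had 1.58, 2.36, 2.29 and 2.64 CPM in A0 and 1897, 3196 and 2939.8 CPM in CHO-S (log2 fold change -10.22 ± 0.28, adjusted p = 3.39e-08, -10.38 without the shallow library). Col4a2, its partner chain, had 0.186, 0.0844, 0.688 and 0.587 CPM in A0 and 218, 624 and 599.6 CPM in CHO-S (log2 fold change -10.19 ± 0.54, adjusted p = 5.50e-07, -10.49 without the shallow library). Both chains were at 2.64 CPM or less in all 4 A0 libraries and at 218 CPM or more in all 3 CHO-S libraries. Fn1, fibronectin, had 395, 432, 641 and 561 CPM in A0 and 2283, 2833 and 3021 CPM in CHO-S (log2 fold change -2.42 ± 0.19, adjusted p = 6.43e-06, -2.49 without the shallow library). Hspg2, perlecan of the basement membrane, had 321, 353, 546 and 594 CPM in A0 and 922, 3550.4 and 3471 CPM in CHO-S (log2 fold change -2.55 ± 0.41, adjusted p = 7.00e-04, -2.92 without the shallow library). Fibronectin and perlecan were reduced but stayed at 321 CPM or more in A0. Col6a1 had 89.3, 88.1, 86.3 and 88.9 CPM in A0 and 1275, 1958 and 1897 CPM in CHO-S (log2 fold change -4.28 ± 0.18, adjusted p = 1.38e-07, -4.42 without the shallow library). Timp1, an inhibitor of matrix metalloproteinases, had 176, 160.4, 141 and 138 CPM in A0 and 1137, 2116 and 1812 CPM in CHO-S (log2 fold change -3.46 ± 0.21, adjusted p = 1.39e-06, -3.65 without the shallow library). Spp1, osteopontin, had 54.9, 54.9, 40.2 and 38.4 CPM in A0 and 2259, 1216 and 1201 CPM in CHO-S (log2 fold change -5.05 ± 0.27, adjusted p = 6.01e-07, -4.66 without the shallow library). Among the 8 matrix genes higher in A0 were proteases. Mmp12, macrophage metalloelastase, had 446, 459, 253 and 187 CPM in A0 and 19.8, 18.2 and 17.7 CPM in CHO-S (log2 fold change 4.198 ± 0.36, adjusted p = 1.00e-05, 4.24 without the shallow library). Plau, urokinase, had 7.98, 8.19, 3.44 and 6.16 CPM in A0 and 3.12, 1.09 and 2.04 CPM in CHO-S (log2 fold change 2.01 ± 0.43, adjusted p = 0.00398, 2.15 without the shallow library).

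The mesenchymal and fibroblast markers, 14 tested, were lower in 8 and higher in 2 cases (71.4% called, against 40% of all genes). Their median was -1.43, at a summed level of 2052 to 2274 CPM in A0 and 4920 to 7142 CPM in CHO-S. Tagln, an actin-binding protein of smooth muscle and fibroblasts, was higher (10.9, 11.8, 14.5 and 12.7 CPM in A0 and 3.12, 5.02 and 5.04 CPM in CHO-S, log2 fold change 1.37 ± 0.20, adjusted p = 4.14e-04, 1.34 without the shallow library).

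Adhesion genes split evenly, 8 higher and 8 lower of 31 tested, with 51.6% called against 40% of all genes. All genes also split nearly evenly, 20.7% higher and 19.3% lower. The median of the list was 0.25 (0.39 without the shallow library, 11 and 11). Cdh2, N-cadherin, had 54.1, 50.8, 32.1 and 31.4 CPM in A0 and 0 CPM in all 3 CHO-S libraries, at least 309-fold higher against a floor of 3 counts over the CHO-S libraries (adjusted p = 7.40e-06). Cdh13, T-cadherin, had 22.5, 21.6, 39.7 and 43.5 CPM in A0 and 0, 0.0727 and 0.136 CPM in CHO-S (adjusted p = 3.98e-06). Both cadherins were thus almost or fully without counts in CHO-S. Itga5, a subunit of the fibronectin receptor, had 154, 165, 148 and 134 CPM in A0 and 452, 1060.4 and 934 CPM in CHO-S (log2 fold change -2.44 ± 0.25, adjusted p = 3.98e-05, -2.70 without the shallow library). Pcdh18, a protocadherin, had 37.3, 36.8, 31.3 and 30.2 CPM in A0 and 149, 117 and 122.7 CPM in CHO-S (log2 fold change -1.92 ± 0.15, adjusted p = 7.27e-06, -1.79 without the shallow library).

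**Figure D3:**
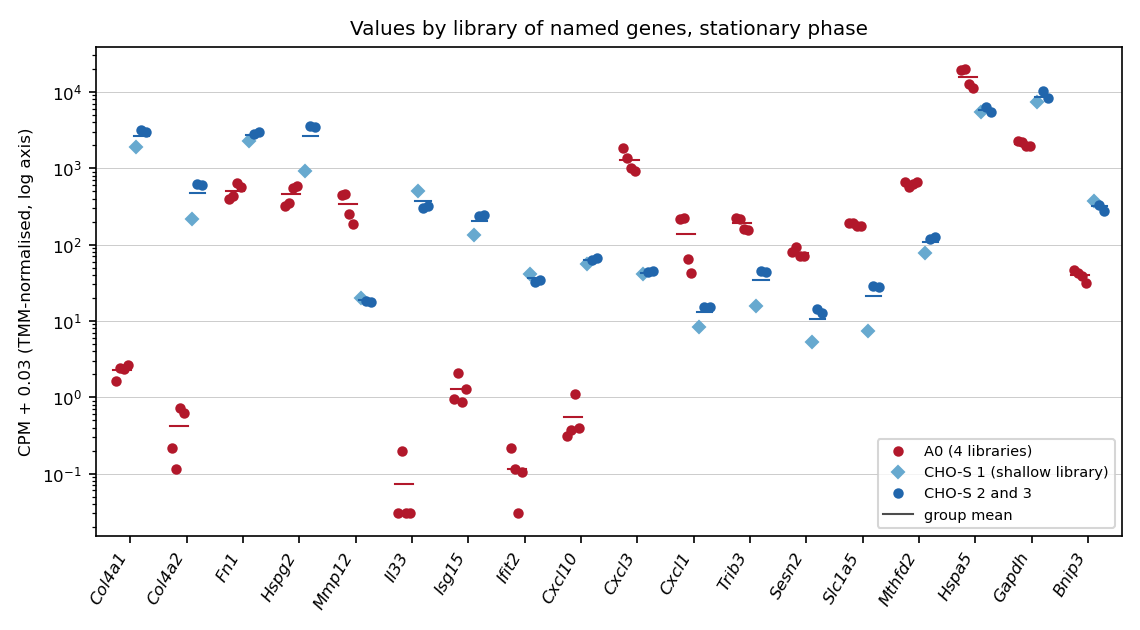
CPM + 0.03 on a log axis for 18 named genes in 4 A0 libraries (red), the shallow CHO-S library (light blue diamond) and CHO-S 2 and 3 (dark blue), with bars at the group means. Col4a1 lies at 1.58 to 2.64 CPM in A0 against 1897 to 3196 CPM in CHO-S, and Cxcl3 at 921 to 1849 CPM against 40.6 to 45.3 CPM.

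Of 24 interferon response genes tested, 79.2% were called, against 40% of all genes, 18 lower and 1 higher in A0. Their median was -0.98 (-0.95 without the shallow library, 21 lower and 1 higher). Isg15, a ubiquitin-like protein that interferon induces, had 0.928, 2.03, 0.841 and 1.25 CPM in A0 and 132, 236 and 241 CPM in CHO-S (log2 fold change -7.34 ± 0.33, adjusted p = 2.13e-07, -7.52 without the shallow library). Ifit2, which binds RNA, had 0.186, 0.0844, 0 and 0.0733 CPM in A0 and 41.6, 32.6 and 33.9 CPM in CHO-S (adjusted p = 9.83e-08). The A0 values were within a few counts of 0. Irf7, the factor that drives interferon alpha genes, had 2.04, 2.45, 1.83 and 1.91 CPM in A0 and 11.4, 28.6 and 28.2 CPM in CHO-S (log2 fold change -3.61 ± 0.26, adjusted p = 3.65e-06, -3.76 without the shallow library). Usp18, which removes ISG15, had 2.97, 3.21, 2.6 and 2.42 CPM in A0 and 38.5, 33.9 and 43.1 CPM in CHO-S (log2 fold change -3.78 ± 0.17, adjusted p = 2.27e-07, -3.74 without the shallow library). The gene that went the other way was Ifih1, which encodes the RNA sensor MDA5, with 16.98, 19.2, 24.5 and 25.7 CPM in A0 and 0, 0.0727 and 0 CPM in CHO-S (adjusted p = 7.35e-07). At exponential phase the list had a median of -0.87, with 21 genes lower and 2 higher. The difference changed with phase for 2 of the 24 genes, near the 10.3% of all genes tested for this interaction.

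Of 24 chemokine, cytokine and complement genes, 70.8% were called, against 40% of all genes, 11 lower and 6 higher. Their median was -0.22 (-0.15 without the shallow library, when 12 were lower and 7 higher). Il33, an alarmin of the interleukin-1 family, had 0, 0.169, 0 and 0 CPM in A0 and 506, 301 and 320.4 CPM in CHO-S (adjusted p = 7.80e-08). Cxcl10, an interferon-induced chemokine, had 0.278, 0.338, 1.07 and 0.367 CPM in A0 and 56.1, 63.5 and 67.5 CPM in CHO-S (log2 fold change -6.88 ± 0.30, adjusted p = 1.93e-07, -6.90 without the shallow library), and -7.52 without A0 3, its highest A0 library. The neutrophil chemokines Cxcl3 and Cxcl1 were higher. Cxcl3 had 1849, 1354, 1016 and 921 CPM in A0 and 40.6, 43.2 and 45.3 CPM in CHO-S (log2 fold change 4.89 ± 0.28, adjusted p = 8.56e-07, 4.89 without the shallow library). Cxcl1 had 218, 226, 65.5 and 42.2 CPM in A0 and 8.32, 15.2 and 15.3 CPM in CHO-S (log2 fold change 3.29 ± 0.61, adjusted p = 0.00176, 3.19 without the shallow library), with A0 1 and 2 above A0 3 and 4. At exponential phase Cxcl1 was lower in A0 (-1.50), and the change with phase was 4.74 ± 0.60, adjusted p = 3.36e-05, 4.72 without the shallow library. Cxcl3 stood at 0.57 at exponential phase, where it was not called, and changed by 4.31 ± 0.50, adjusted p = 1.30e-05, 4.34 without the shallow library. These 2 are related genes, and reads that align to more than 1 place were not counted.

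Growth factor genes and developmental transcription factors were lower more often than higher. Of 40 growth factor receptors and ligands, 57.5% were called, against 40% of all genes, 18 lower and 5 higher. Their median was -0.64 (-0.68 without the shallow library, when 21 were lower and 6 higher). Pdgfrb, a PDGF receptor of mesenchymal cells, had 8.999, 10.1, 7.87 and 7.04 CPM in A0 and 83.2, 281 and 267 CPM in CHO-S (log2 fold change -4.66 ± 0.37, adjusted p = 6.38e-06, -4.98 without the shallow library). Hgf, hepatocyte growth factor, had 5.1, 6.59, 5.73 and 6.01 CPM in A0 and 81.1, 47.6 and 38.6 CPM in CHO-S (log2 fold change -3.15 ± 0.24, adjusted p = 5.06e-06, -2.85 without the shallow library). Fgfr1 and Fgfr2, receptors of fibroblast growth factors, were higher. Fgfr1 had 67.3, 71.0, 65.0 and 59.4 CPM in A0 and 4.16, 9.45 and 10.6 CPM in CHO-S (log2 fold change 2.83 ± 0.21, adjusted p = 4.70e-06, 2.75 without the shallow library). Fgfr2 had 8.999, 8.86, 6.95 and 5.72 CPM in A0 and 0, 0.0727 and 0 CPM in CHO-S (adjusted p = 6.42e-06). Of 39 developmental transcription factors, 69.2% were called, against 40% of all genes, 23 lower and 4 higher. Their median was -0.84 (-0.77 without the shallow library, when 24 were lower and 9 higher). Hoxa9 and Hoxa10 set position along the body axis. Hoxa9 had 0 CPM in all 4 A0 libraries and 25.0, 22.3 and 19.6 CPM in CHO-S (adjusted p = 2.10e-06), at least 367-fold lower against the floor. Hoxa10 had 0 CPM in all 4 A0 libraries and 13.5, 18.8 and 21.3 CPM in CHO-S (adjusted p = 3.91e-06), at least 294-fold lower. Both had no counts in any A0 library. Other factors were higher in A0. Twist1, a factor of mesenchymal cells, had 33.6, 33.5, 22.4 and 25.8 CPM in A0 and 0, 0.145 and 0 CPM in CHO-S (adjusted p = 7.05e-07). Hoxd9, of another Hox cluster, had 37.7, 31.6, 39.8 and 42.2 CPM in A0 and 10.4, 19.6 and 15.7 CPM in CHO-S (log2 fold change 1.19 ± 0.20, adjusted p = 7.90e-04, 1.11 without the shallow library).

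Genes of DNA replication and cell division differed in 8 of 32 cases (25%), below the 40% of all genes, 7 lower and 1 higher, with a median of -0.15. With CHO-S 2 and 3 alone 10 were called, 7 lower and 3 higher, against 51.8% of all genes. Rrm2, a subunit of ribonucleotide reductase, had 88.8, 79.3, 110.4 and 125 CPM in A0 and 334, 295 and 249 CPM in CHO-S (log2 fold change -1.53 ± 0.19, adjusted p = 1.26e-04, -1.40 without the shallow library). Ccne2, cyclin E2, had 4.82, 4.31, 7.03 and 6.31 CPM in A0 and 16.6, 9.67 and 11.2 CPM in CHO-S (log2 fold change -0.998 ± 0.24, adjusted p = 0.00809, -0.84 without the shallow library). Mcm7, a subunit of the replicative helicase, had 208, 185, 228 and 249 CPM in A0 and 107, 132 and 136 CPM in CHO-S (log2 fold change 0.79 ± 0.16, adjusted p = 0.00306, 0.73 without the shallow library) and was the member that was higher. Without TMM 5 members were called, 3 lower and 2 higher. Growth arrest genes were lower in 9 and higher in 3 of 20 cases, with 60% called against 40% of all genes. Their median was -0.56 (-0.50 without the shallow library, when 11 were lower and 3 higher). Btg1, an antiproliferative gene, had 105, 108, 77.7 and 76.0 CPM in A0 and 817, 499 and 502 CPM in CHO-S (log2 fold change -2.72 ± 0.22, adjusted p = 8.45e-06, -2.42 without the shallow library). Btg2, of the same family, had 8.44, 9.88, 8.79 and 9.17 CPM in A0 and 35.4, 53.2 and 42.5 CPM in CHO-S (log2 fold change -2.31 ± 0.16, adjusted p = 3.24e-06, -2.38 without the shallow library). Gadd45a, a stress-induced growth arrest gene, had 466, 498, 352 and 347 CPM in A0 and 231, 88.1 and 85.9 CPM in CHO-S (log2 fold change 1.67 ± 0.34, adjusted p = 0.00311, 2.28 without the shallow library), and the shallow library lay between the other CHO-S libraries and A0. Klf4 had 77.3, 79.0, 52.6 and 53.2 CPM in A0 and 28.1, 26.8 and 31.2 CPM in CHO-S (log2 fold change 1.19 ± 0.20, adjusted p = 0.00104, 1.21 without the shallow library).

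Of 23 apoptosis regulators, 65.2% were called, against 40% of all genes, 13 lower and 2 higher. Their median was -0.74 (-0.80 without the shallow library, when 15 were lower and 2 higher). Casp6, an effector caspase, had 5.94, 5.66, 7.49 and 7.33 CPM in A0 and 68.6, 38.2 and 39.3 CPM in CHO-S (log2 fold change -2.78 ± 0.22, adjusted p = 7.05e-06, -2.51 without the shallow library). All A0 libraries lay below all CHO-S libraries, as they did for Casp1. Casp1, the inflammatory caspase, had 2.23, 2.45, 4.28 and 5.06 CPM in A0 and 27.0, 24.6 and 22.8 CPM in CHO-S (log2 fold change -2.78 ± 0.27, adjusted p = 2.49e-05, -2.70 without the shallow library). The 2 genes that were higher were Casp8, the initiator caspase of death receptors, with 25.5, 26.5, 25.8 and 30.1 CPM in A0 and 11.4, 12.1 and 12.7 CPM in CHO-S (log2 fold change 1.14 ± 0.15, adjusted p = 1.94e-04, 1.15 without the shallow library), and Birc2. Birc2, an inhibitor of apoptosis, had 33.5, 25.8, 35.6 and 33.7 CPM in A0 and 19.8, 18.8 and 19.4 CPM in CHO-S (log2 fold change 0.74 ± 0.16, adjusted p = 0.00444, 0.78 without the shallow library), and missed the threshold with A0 1 and 2 alone (adjusted p = 0.0529). Autophagy and lysosome genes, 27 tested, were lower in 10 and higher in 2 cases (median -0.07, 0.03 without TMM and -0.33 without the shallow library). The share called, 44.4%, was near the 40% of all genes. Without the shallow library 18 of the 27 were called, 13 lower and 5 higher, when 51.8% of all genes were called. Tfeb, the factor that drives lysosomal genes, had 3.25, 3.38, 5.73 and 4.99 CPM in A0 and 10.4, 19.7 and 19.6 CPM in CHO-S (log2 fold change -2.05 ± 0.25, adjusted p = 1.33e-04, -2.13 without the shallow library). Ctsk, cathepsin K, had 1.39, 0.507, 1.15 and 0.954 CPM in A0 and 9.36, 6.33 and 7.09 CPM in CHO-S (log2 fold change -2.80 ± 0.31, adjusted p = 6.23e-05, -2.70 without the shallow library). The cholesterol exporters of the lysosome were the 2 higher members. Npc1 had 90.6, 108, 86.1 and 71.7 CPM in A0 and 46.8, 51.3 and 47.9 CPM in CHO-S (log2 fold change 0.86 ± 0.17, adjusted p = 0.00244, 0.87 without the shallow library). Npc2 had 710.0, 689, 623 and 549 CPM in A0 and 213, 447 and 424 CPM in CHO-S (log2 fold change 0.82 ± 0.24, adjusted p = 0.0189, 0.59 without the shallow library), a call lost without A0 1 or A0 2 (adjusted p = 0.0545 and 0.0515).

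Of 22 antioxidant and NRF2 genes, 8 were higher and 1 lower (median 0.29, 0.30 without the shallow library, when 11 were higher and 4 lower). The share called was 40.9%, near the 40% of all genes, in the fit with the shallow library. Without it 15 of the 22 were called, when 51.8% of all genes were called. Prdx1, peroxiredoxin 1, had 578, 592, 776 and 731 CPM in A0 and 233, 338 and 344 CPM in CHO-S (log2 fold change 1.13 ± 0.19, adjusted p = 8.51e-04, 1.01 without the shallow library). Gpx4, the selenoenzyme that reduces lipid hydroperoxides, was the lower member with 298, 261, 270.0 and 266 CPM in A0 and 1282, 1352 and 1355 CPM in CHO-S (log2 fold change -2.28 ± 0.13, adjusted p = 6.66e-07, -2.28 without the shallow library). Of 17 iron and metal genes, 5 were higher and 0 lower (median 0.08), a share of 29.4% against 40% of all genes. Leaving out the shallow library, 6 were higher and 1 lower (median 0.25). Mt1, a metallothionein, had 12.6, 13.3, 16.2 and 14.1 CPM in A0 and 0, 1.31 and 1.5 CPM in CHO-S (log2 fold change 3.42 ± 0.28, adjusted p = 8.75e-06, 3.37 without the shallow library). Slc40a1, ferroportin, which exports iron, had 14.1, 12.7, 23.3 and 24.1 CPM in A0 and 7.28, 8.29 and 8.86 CPM in CHO-S (log2 fold change 1.14 ± 0.28, adjusted p = 0.00758, 1.16 without the shallow library). Of 9 ABC drug efflux transporters, 4 were higher and 0 lower (median 0.80), a share of 44.4%, near that of all genes. Without the shallow library 4 were higher and 1 lower (median 0.67). Abcc1, which encodes MRP1, had 145, 169, 179 and 179 CPM in A0 and 73.8, 93.4 and 91.9 CPM in CHO-S (log2 fold change 0.94 ± 0.16, adjusted p = 8.50e-04, 0.89 without the shallow library), and was lower in A0 at exponential phase (-0.44). Abcc2 had 6.12, 8.86, 4.51 and 6.01 CPM in A0 and 5.2, 3.27 and 3.41 CPM in CHO-S (log2 fold change 0.86 ± 0.29, adjusted p = 0.0388, 0.96 without the shallow library), with groups that overlapped and a call lost without A0 1, 2 or 4 or CHO-S 2 or 3 (adjusted p from 0.0635 to 0.156).

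Some N-glycan genes bear on the sugars that a CHO line attaches to its product, which were not measured here. Of 30 genes of N-glycan branching and sialylation, 7 were lower and 5 higher (median -0.27), the same 40% as over all genes. This changed to 19 called without the shallow library, 12 lower and 7 higher (median -0.25), when 51.8% of all genes were called. B4galt6, a galactosyltransferase, had 0 CPM in all 4 A0 libraries and 10.4, 8.14 and 6.95 CPM in CHO-S, at least 139.8-fold lower (adjusted p = 1.39e-05). Mgat4b, a branching N-acetylglucosaminyltransferase, had 21.2, 17.3, 20.9 and 22.5 CPM in A0 and 37.4, 94.5 and 103 CPM in CHO-S (log2 fold change -2.001 ± 0.27, adjusted p = 2.26e-04, -2.24 without the shallow library). Higher members were B4galt4, with 50.7, 47.1, 54.1 and 54.1 CPM in A0 and 18.7, 27.8 and 28.9 CPM in CHO-S (log2 fold change 0.96 ± 0.17, adjusted p = 0.00108, 0.89 without the shallow library), and Gne. Gne, which makes the sialic acid precursor, had 19.9, 24.6, 19.9 and 18.8 CPM in A0 and 6.24, 12 and 11.3 CPM in CHO-S (log2 fold change 0.92 ± 0.19, adjusted p = 0.0033, 0.86 without the shallow library). Of 22 heparan sulfate genes, 54.5% were called, against 40% of all genes, 6 higher and 6 lower (median -0.09, 0.02 without TMM). Without the shallow library 7 were higher and 9 lower. Ndst2, an N-deacetylase and N-sulfotransferase of heparan sulfate, had 25.7, 27.4, 24.8 and 23.8 CPM in A0 and 62.4, 159.6 and 150.8 CPM in CHO-S (log2 fold change -2.33 ± 0.26, adjusted p = 6.97e-05, -2.58 without the shallow library). Whether the label NDST of the CHO-S libraries refers to genes of this family is not stated. Ext1, a subunit of the heparan sulfate polymerase, had 25.8, 26.0, 28.2 and 25.4 CPM in A0 and 84.2, 102 and 96.8 CPM in CHO-S (log2 fold change -1.85 ± 0.14, adjusted p = 4.31e-06, -1.89 without the shallow library). The lines did not overlap for either gene. Xylt1, which starts the chain, had 6.22, 5.15, 6.42 and 5.65 CPM in A0 and 0 CPM in all 3 CHO-S libraries, at least 43.1-fold higher (adjusted p = 1.89e-05). Extl1 had 12.3, 13.6, 19.3 and 15.3 CPM in A0 and 0, 0.0727 and 0 CPM in CHO-S (adjusted p = 1.43e-06). Of 14 imprinted genes, 3 were lower and 3 higher (median -0.34), a share of 42.9%, near that of all genes, and without the shallow library 5 were lower and 3 higher. Igf2r, the mannose 6-phosphate receptor, had 184, 197, 193 and 208 CPM in A0 and 546, 902 and 883 CPM in CHO-S (log2 fold change -1.995 ± 0.18, adjusted p = 1.75e-05, -2.16 without the shallow library). Nnat had 1.39, 2.7, 2.45 and 2.27 CPM in A0 and 14.6, 9.16 and 5.59 CPM in CHO-S (log2 fold change -1.93 ± 0.32, adjusted p = 9.07e-04, -1.74 without the shallow library), and Blcap, which holds Nnat in its intron, went the other way with 79.2, 72.2, 66.4 and 67.5 CPM in A0 and 19.8, 46.5 and 46.6 CPM in CHO-S (log2 fold change 0.83 ± 0.23, adjusted p = 0.0162, 0.64 without the shallow library). Blcap was lower in A0 at exponential phase (-0.39).

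Ovarian and steroidogenic markers, 6 tested, were lower in 2 and higher in 2 cases, a share of 66.7% over few genes, against 40% of all genes. Star, the cholesterol importer of steroidogenic mitochondria, had 12.8, 11.7, 11.5 and 13.6 CPM in A0 and 55.1, 67.5 and 59.4 CPM in CHO-S (log2 fold change -2.31 ± 0.14, adjusted p = 1.49e-06, -2.33 without the shallow library), but was higher in A0 at exponential phase (0.76), a change of -3.08 ± 0.20, adjusted p = 2.59e-08, -3.06 without the shallow library. Inhbb, an inhibin beta subunit, had 19.7, 15.03, 15.97 and 17.8 CPM in A0 and 39.5, 36.8 and 39.3 CPM in CHO-S (log2 fold change -1.16 ± 0.15, adjusted p = 1.52e-04, -1.12 without the shallow library) and was likewise higher in A0 at exponential phase (0.58). Inha, the inhibin alpha subunit, had 6.12, 5.74, 7.34 and 6.16 CPM in A0 and 0, 1.09 and 0.954 CPM in CHO-S (log2 fold change 2.69 ± 0.31, adjusted p = 8.60e-05, 2.62 without the shallow library). Amhr2, the receptor of anti-Mullerian hormone, had 3.15, 7.18, 5.27 and 5.72 CPM in A0 and 2.08, 1.31 and 0.818 CPM in CHO-S (log2 fold change 2.17 ± 0.39, adjusted p = 0.00146, 2.27 without the shallow library).

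**Figure D4:**
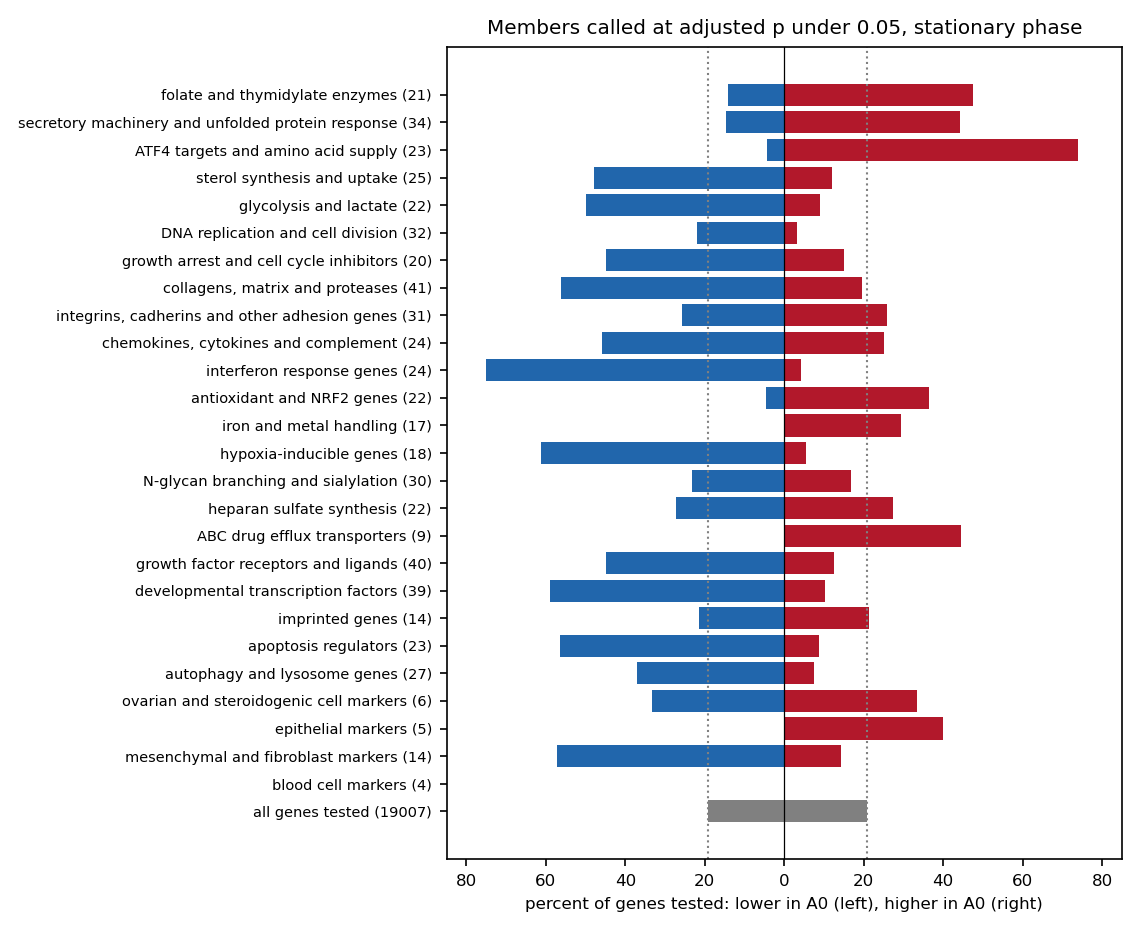
Percent of the tested genes of each list called lower (left, blue) and higher (right, red) in A0 at stationary phase, with the number tested in parentheses and all 19007 genes in grey. Dotted lines mark 19.3% lower and 20.7% higher over all genes. The bars of ATF4 targets reach farthest to the right (17 of 23) and those of interferon response genes farthest to the left (18 of 24).

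Among genes of at least 10 CPM that had more than 3 counts in some library of the lower line, the largest rises were in genes nearly silent in CHO-S. Tdgf1, which encodes the Nodal co-receptor Cripto, had 40.7, 41.4, 68.6 and 57.8 CPM in A0 and 0, 0.291 and 0.409 CPM in CHO-S (log2 fold change 7.31 ± 0.40, adjusted p = 6.66e-07, 7.28 without the shallow library). Brinp3 had 42.2, 39.3, 55.6 and 60.9 CPM in A0 and 0, 0.436 and 0.273 CPM in CHO-S (log2 fold change 7.06 ± 0.36, adjusted p = 4.25e-07, 7.02 without the shallow library), and 7.68 without CHO-S 2. Ccdc88a, girdin, an actin-binding protein, had 69.3, 72.9, 77.7 and 69.5 CPM in A0 and 5.2, 0.436 and 0.273 CPM in CHO-S (log2 fold change 6.82 ± 0.49, adjusted p = 3.75e-06, 7.56 without the shallow library). In Ccdc88a the shallow library held the highest CHO-S value. The same held for Smarca1, an ISWI chromatin remodeller, with 28.3, 30.4, 37.5 and 29.9 CPM in A0 and 5.2, 0.364 and 0.273 CPM in CHO-S (log2 fold change 5.75 ± 0.50, adjusted p = 1.28e-05, 6.55 without the shallow library), and 5.10 without CHO-S 2. Camk4, a calcium and calmodulin-dependent kinase, had 27.5, 28.0, 14.67 and 14.3 CPM in A0 and 0, 0.291 and 0 CPM in CHO-S (log2 fold change 6.78 ± 0.62, adjusted p = 1.58e-05, 6.74 without the shallow library). Without CHO-S 2 it was at 0 in CHO-S, and the fitted 10.66 then depends on the prior count. In each of these genes every CHO-S library lay far below every A0 library. Tspan7, a tetraspanin, had 77.0, 78.6, 77.1 and 77.2 CPM in A0 and 0, 1.16 and 0.818 CPM in CHO-S (log2 fold change 6.30 ± 0.26, adjusted p = 1.43e-07, 6.23 without the shallow library). Ampd3, AMP deaminase of red cells, had 96.1, 116, 154 and 138 CPM in A0 and 3.12, 1.53 and 2.73 CPM in CHO-S (log2 fold change 5.90 ± 0.31, adjusted p = 5.13e-07, 6.02 without the shallow library). Both lay far apart between the lines. Scn4a, the sodium channel of skeletal muscle, had 34.8, 36.6, 22.3 and 16.4 CPM in A0 and 0, 0.509 and 0.409 CPM in CHO-S (log2 fold change 5.89 ± 0.50, adjusted p = 9.53e-06, 5.84 without the shallow library). Sema3a, a repulsive axon guidance factor, had 92.1, 93.2, 47.0 and 52.4 CPM in A0 and 0, 1.38 and 1.36 CPM in CHO-S (log2 fold change 5.77 ± 0.43, adjusted p = 4.38e-06, 5.70 without the shallow library). Sirpa, the receptor of CD47, had 118, 116, 122 and 110.2 CPM in A0 and 1.04, 2.91 and 1.64 CPM in CHO-S (log2 fold change 5.67 ± 0.25, adjusted p = 2.04e-07, 5.60 without the shallow library), and 6.29 without CHO-S 2. The rule asked for lines that do not overlap, which is therefore no result for these 10 genes. Some fitted sizes rest on few counts, such as 7, 8 and 4 over all CHO-S libraries for Tdgf1, Brinp3 and Camk4, so their order is uncertain.

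The largest falls by the same rule included Col4a1, Col4a2 and Isg15, given above, and genes of several kinds. Fabp4, a fatty acid carrier, had 0.464, 0.338, 1.15 and 0.587 CPM in A0 and 245, 182 and 209 CPM in CHO-S (log2 fold change -8.33 ± 0.30, adjusted p = 6.77e-08, -8.18 without the shallow library). Hydin, a gene of motile cilia, had 0.371, 0, 0 and 0.147 CPM in A0 and 18.7, 42.7 and 46.2 CPM in CHO-S (log2 fold change -8.18 ± 0.50, adjusted p = 1.18e-06, -8.36 without the shallow library), and -9.23 without A0 1. Znf605, a zinc finger gene, had 0.186, 0.0844, 0.382 and 0.0733 CPM in A0 and 63.4, 33.6 and 34.2 CPM in CHO-S (log2 fold change -7.70 ± 0.39, adjusted p = 4.17e-07, -7.43 without the shallow library), and -8.37 without A0 3. S100a16, a calcium-binding protein, had 0.371, 0.422, 0.153 and 0 CPM in A0 and 35.4, 45.9 and 50.8 CPM in CHO-S (log2 fold change -7.59 ± 0.37, adjusted p = 2.94e-07, -7.66 without the shallow library). Swap70, a signalling protein of B cells and mast cells, had 0.371, 0.253, 0.306 and 0.367 CPM in A0 and 57.2, 59.1 and 63.3 CPM in CHO-S (log2 fold change -7.48 ± 0.20, adjusted p = 3.39e-08, -7.48 without the shallow library), with the 3 CHO-S libraries close together. Here too the rule asked for lines that do not overlap, and some sizes rest on few counts, such as 6 and 9 over all A0 libraries for Hydin and Znf605.

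Many genes were called with at most 3 counts in every library of 1 line: 399 (2.1%) at that floor in A0 and 1065 (5.6%) in CHO-S, of which 141 and 652 had 0 counts in the line. The summed depth was lower in CHO-S, where 3 counts over all libraries were 0.136 CPM, against 0.0608 CPM in A0. The numbers of genes at the floor are therefore not for like levels in the lines. The fitted fold change of genes at the floor depends on the prior count and is not given. At the floor in CHO-S, Slc9a9, an endosomal sodium-proton exchanger, had 309.7, 332, 193 and 173 CPM in A0 and 0, 0.0727 and 0 CPM in CHO-S, and Adgrd1, an adhesion G protein-coupled receptor, had 91.8, 103, 50.4 and 48.5 CPM in A0 and 0, 0.0727 and 0 CPM in CHO-S. Slc15a3, a lysosomal peptide and histidine transporter, had 68.2, 74.5, 67.2 and 51.7 CPM in A0 and 0, 0.0727 and 0.136 CPM in CHO-S. Dgat2, which makes triglyceride, had 64.5, 65.0, 45.2 and 45.7 CPM in A0 and 0 CPM in all 3 CHO-S libraries, at least 405-fold higher. These 4 were seen in every A0 library. Creb5, a factor of the CREB family, had 32.1, 41.7, 67.3 and 65.3 CPM in A0 and 0 CPM in all 3 CHO-S libraries, at least 379-fold higher, and Malrd1 had 60.2, 54.7, 54.0 and 51.0 CPM in A0 and 1.04, 0 and 0 CPM in CHO-S. At the floor in A0, besides Il33, Maged1, of the MAGE family, had 0 CPM in all 4 A0 libraries and 122, 242 and 231 CPM in CHO-S, at least 3261-fold lower. Vstm4 had 0 CPM in all 4 A0 libraries and 61.3, 98.4 and 102 CPM in CHO-S, at least 1435-fold lower. Bicc1, an RNA-binding protein, had 0 CPM in all 4 A0 libraries and 68.6, 61.7 and 70.1 CPM in CHO-S, at least 1099-fold lower. Ifi44l, an interferon-induced gene, had 0.0928, 0.0844, 0 and 0 CPM in A0 and 79.0, 37.7 and 49.1 CPM in CHO-S. These genes were called both with and without the shallow library. Counts of 0 limit the level at this depth and do not show absence, and the floors cover counting error only. Each bound uses the mean over all libraries of the higher line and does not cover the spread of that mean. Without the shallow library the CHO-S mean, and so the bound, was lower for Stard4, B4galt6, Hoxa9 and Bicc1. It was higher for Hoxa10, Maged1 and Vstm4.

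In absolute CPM, by means over all 7 libraries, the highest gains included Hspa5, Eef1a1, Clu, Hyou1 and Eef2. Eef1a1, a translation elongation factor, had 6438, 5839.8, 5392 and 5434 CPM in A0 and 1103, 2284 and 2345 CPM in CHO-S (log2 fold change 1.59 ± 0.24, adjusted p = 4.69e-04, 1.35 without the shallow library). Eef2, the translocation factor, had 2952, 2845, 2675 and 2602 CPM in A0 and 802, 1738 and 1731 CPM in CHO-S (log2 fold change 0.96 ± 0.24, adjusted p = 0.0094, 0.70 without the shallow library), and missed the threshold with A0 1 and 2 or A0 3 and 4 alone (adjusted p = 0.0629 and 0.112). For both, the shallow library was the lowest of the 7. Clu, clusterin, a secreted chaperone, had 2764, 2716, 2541 and 2243 CPM in A0 and 435, 567 and 527 CPM in CHO-S (log2 fold change 2.33 ± 0.15, adjusted p = 1.95e-06, 2.26 without the shallow library). By the same means the greatest losses were in Gapdh, Tgm2, Calr, Col4a1, Fn1 and Hspg2. The places of Eef2 and Calr rest on the shallow library, without which the CHO-S mean of Eef2 was 1734 in place of 1424 CPM and that of Calr 3599 in place of 5405 CPM, so that both differences were smaller. Tgm2, transglutaminase 2, which cross-links matrix proteins, had 382, 396, 429.5 and 379 CPM in A0 and 2257, 5501 and 5159 CPM in CHO-S (log2 fold change -3.44 ± 0.27, adjusted p = 5.89e-06, -3.72 without the shallow library). Gapdh and Eef1a1 have many processed copies in mammalian genomes, so their counts depend on how reads from copies were assigned.

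The same lines were set against each other at exponential phase, in other libraries (8 of A0, summed to 4 by their number, and 3 of CHO-S). Their labels carry the same numbers as those of the stationary libraries. Whether a number names the same culture at both phases is not stated, so the phases need not be independent. Of 19966 genes tested there, 9879 (49.5%) were called. Of 18527 genes tested at both phases, 7584 were called at stationary and 9836 at exponential phase, and 5796 at both, which is 76.4% of the first and 58.9% of the second. Among these 5796, 5584 (96.3%) had the same direction and 212 the opposite one. The difference between lines itself changed with phase for 2159 of 20871 genes (10.3%), upwards in A0 for 788 (3.78%) and downwards for 1371 (6.57%). Without the shallow library 3586 of 20868 genes (17.2%) were called, 1760 (8.43%) upwards and 1826 (8.75%) downwards.

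Besides Cxcl1 and Cxcl3, the genes whose difference rose most were Sema3a, Ttc38 and Trib3. Trib3 was lower in A0 at exponential phase (-0.71) and changed by 3.00 ± 0.29, adjusted p = 1.76e-06, 2.87 without the shallow library. Sema3a was higher at both phases and changed by 3.48 ± 0.51, adjusted p = 1.73e-04, 3.47 without the shallow library. Ttc38 was lower in A0 at both, with 0.464, 0.0844, 0.229 and 0.22 CPM in A0 and 7.28, 13.7 and 13.6 CPM in CHO-S at stationary phase. At exponential phase it had 0.0101 ± 0.0201 CPM in A0 (SD, n = 4) and 8.29 ± 0.499 CPM in CHO-S (SD, n = 3), so A0 lay at the floor and the size of the fitted change depends on the prior count. Its call (adjusted p = 0.0199) was lost without A0 1 (adjusted p = 0.0641).

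The genes whose difference fell most included Aqp1, Nckap5 and Wnt4, which were higher in A0 at exponential and lower at stationary phase. Aqp1, a water channel, had 7.52, 7.09, 18.9 and 12.03 CPM in A0 and 63.4, 190.4 and 178 CPM in CHO-S at stationary phase (log2 fold change -3.69 ± 0.41, adjusted p = 6.84e-05, -3.97 without the shallow library), against 0.98 at exponential phase, a change of -4.70 ± 0.44, adjusted p = 1.52e-06, -4.93 without the shallow library. Wnt4, a secreted signal, had 25.8, 20.7, 21.1 and 18.9 CPM in A0 and 76.9, 199 and 205 CPM in CHO-S (log2 fold change -2.93 ± 0.29, adjusted p = 3.00e-05, -3.20 without the shallow library), against 1.08, a change of -4.03 ± 0.32, adjusted p = 2.51e-07, -4.25 without the shallow library. Nckap5 had 1.21, 1.1, 1.99 and 2.57 CPM in A0 and 28.1, 13.1 and 15.3 CPM in CHO-S (log2 fold change -3.24 ± 0.34, adjusted p = 4.12e-05, -2.97 without the shallow library), against 1.05, a change of -4.25 ± 0.38, adjusted p = 1.01e-06, -3.997 without the shallow library. In Nckap5, as in Fcho1 and Bhlhe41, the shallow library had the highest value and the difference was smaller without it. Fcho1, a factor of clathrin-mediated endocytosis, had 2.88, 3.04, 3.21 and 3.96 CPM in A0 and 210.0, 20.6 and 20.7 CPM in CHO-S (log2 fold change -4.39 ± 0.80, adjusted p = 0.0015, -2.62 without the shallow library), and changed by -3.99 ± 0.78, adjusted p = 0.00214, -2.37 without the shallow library. Bhlhe41, a transcriptional repressor of the clock, had 20.97, 20.7, 11.3 and 11 CPM in A0 and 279, 60.2 and 58.2 CPM in CHO-S (log2 fold change -2.95 ± 0.54, adjusted p = 0.00151, -1.87 without the shallow library), and changed by -3.52 ± 0.54, adjusted p = 2.55e-04, -2.53 without the shallow library. Without CHO-S 3, Fcho1 stood at -4.99 and its change with phase was -4.63 without CHO-S 2 and -4.61 without CHO-S 3. For Fcho1 and Bhlhe41, CHO-S 2 and 3 lay close together and the shallow library lay far above them.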

How the data were processed

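RNA-seq counts per gene were deposited for 24 libraries. The authors aligned reads to the C_griseus_v1.0 build with STAR 2.5.4b and counted them with HTSeq 0.7.2, per the submitters' processing notes. Multi-mapped reads were not counted, so genes with near-identical copies are uncertain. The strand setting of the counting is not given in the sources used here, so reads of overlapping or antisense genes cannot be told apart. The 5 summary lines of the table name no gene and entered neither totals nor fits. The study's own filter was applied, which asks for 1 count or more in 2 or more libraries and drops genes of zero variance.

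Groups came from the sample titles. edgeR 4.0.16 in R 4.3.3 (TMM, quasi-likelihood F test, Benjamini-Hochberg, threshold 0.05, no block) compared 4 A0 with 3 CHO-S stationary libraries. The authors' own tool, DESeq2 (1.42.0 here), and limma-voom (limma 3.58.1) were alternatives. The interaction of line and phase was fitted with the exponential libraries, in which libraries of the same line and number were summed. Standard errors are the log2 fold change over the square root of F. The 3-count floor covers counting error only. The tests were checked on simulated data. Of 28037 gene entries in the table, 24186 matched the RefSeq gene table (assembly CriGri-PICRH-1.0), which was used for names and gene order only.

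Genes were named by rule: the 10 largest rises and falls with at least 10 CPM, 6 floor genes of each line, the 6 largest CPM differences each way, the 5 largest interactions each way, and up to 2 called rises and falls of each list with at least 5 CPM. Some items that the rule chose are not reported here. The comparison, the lists and the rule were chosen with earlier results of these data known. Figures were drawn with matplotlib 3.10.9.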

Additional observations from a re-analysis of the deposited data

Results flagged for a closer look

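Of 113 named genes tested for a stationary A0 library far from the other 3 (Dixon's ratio, about 1 in 20 groups by chance, or 5.65), 4 passed. The ratio was 0.857 for Tspan7, 0.888 for Cxcl10, and 1 for both Il33 and Stc2, whose A0 counts were 0 in 3 of 4 libraries.

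The next count covers genes named as largest rises or falls, floor genes, largest CPM differences or largest interactions. Among them the difference between the lines differed between stationary and exponential phase, by the interaction test, for 17. Genes named only from a list were not counted here, though some, such as Bnip3 and Star, also changed with phase. On the log2 scale the change was positive for Cxcl1 (4.74), Cxcl3 (4.31), Sema3a (3.48), Ttc38 (3.17), Trib3 (3.00), Hspa5 (1.36), Sirpa (1.09), Eef2 (1.04) and Hyou1 (0.90). It was negative for Aqp1 (-4.70), Nckap5 (-4.25), Wnt4 (-4.03), Fcho1 (-3.99), Bhlhe41 (-3.52), Tspan7 (-1.68), Fabp4 (-1.49) and Gapdh (-1.45). The value of Ttc38 depends on the prior count, since exponential A0 lay at the floor.

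Reads that were not aligned made up 7.93% ± 1.45 (SD, n = 4) of stationary A0 reads and 2.63% ± 0.384 (SD, n = 3) of stationary CHO-S reads. What these reads are was not analysed here.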

How the results depend on the processing

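The count of 7606 called genes stayed within 1.5 times under DESeq2 (7381), limma-voom (7467; 11004 with sample quality weights), RLE size factors (7606), total counts without TMM (7664), no gene filter (7505) and edgeR's expression filter (6903). Leaving out 1 library at a time gave 5475 to 9831, the highest without the shallow library. Added after seeing the data, the fit without the shallow library gave 9918 with total counts, 9947 with limma-voom and 8902 with DESeq2. With the replicate block the count was 5043. Deviations of same-numbered A0 and CHO-S libraries correlated at -0.215, 0.068 and -0.043. From A0 1 to A0 4, CHO-S 1 went from -0.215 to 0.216 and CHO-S 2, as its mirror, from 0.220 to -0.229. With the shallow library so far apart, the check could not decide whether the numbers pair the libraries. The main fit used no block. The interaction count of 2159 was 1727 to 3586 when 1 library was left out, with 3586 without CHO-S library 1. With line and number as a block across the phases it was 2332, with 921 upwards and 1411 downwards. Under DESeq2 it was 3033, with 1328 upwards and 1705 downwards, against 788 and 1371 in the main fit. The median over all genes shifted by 0.109 with total counts, by -0.141 with limma-voom and by 0.133 without CHO-S library 2. With total counts the medians of the heparan sulfate list (0.0196) and the autophagy and lysosome list (0.0346) changed sign. Without the shallow library, called antioxidant genes went from 9 to 15 and N-glycan genes from 12 to 19. The share called over all genes went from 40% to 51.8%. Of 134 genes that the naming rule chose and that were called at stationary phase, 119 kept their call and direction under every alternative run, 15 lost the call under at least 1, and 0 changed direction. An alternative that gave a fold change of the same direction but no adjusted p was counted as keeping the call. With only A0 1 and 2 or only A0 3 and 4, calls were also lost for Calr, Fcho1, Ccne2, Gadd45a and Blcap. The cause of these changes was not tested.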

Other observations

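Hoxa10, Hoxa9 and Hoxa7, which neighbour each other in the RefSeq order, had at most 3 counts in every A0 library while CHO-S expressed them. They were among 56 such genes of 12435 placed, and were looked for after values of these data had been seen. At the floor in CHO-S, whose summed depth was lower, there were 126 genes that A0 expressed. Runs of neighbours were found there too, such as a run of 4 genes with Nyap2.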
